A study of Mus musculus with 8 samples.

Results

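The genes described here encode the metabotropic glutamate receptor 6 (mGluR6) cascade of ON bipolar cells. The 10 members were chosen by gene symbol (Grm6, Trpm1, Nyx, Lrit3, Gpr179, Rgs7, Rgs11, Gnao1, Gng13 and Pcp2), each of which matched 1 row of a table of 54532 genes. All 10 were among the 17725 genes that passed the filter on low counts. The RNA sequenced came from retinas of rd10 mice, whose rods and later cones die because of a mutation in Pde6b, a rod phosphodiesterase gene. The sIVs group (4 libraries, numbered 2 to 5 in their titles) is named for the small intracellular vesicles of the series title, and the PBS group (4 libraries, numbered 1 to 4) is its labelled control, read here as phosphate-buffered saline. Both groups carried the rd10 mutation, and retina without it was not analysed here. The sources used here do not give the vesicles' origin, dose or route, nor the age or sex of the mice or when retinas were taken. Libraries are numbered as biosamples, but nothing says that each came from its own animal, so the p-values reflect library-to-library spread, which may be technical.

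ON bipolar cells respond to light with depolarisation, because the glutamate that photoreceptors release in darkness holds their cation channel shut. Glutamate binds mGluR6, which activates the G protein Go, and Go in turn closes TRPM1; light lowers glutamate release and the channel opens. Regulators of G protein signalling, held at the dendritic tip by the orphan receptor GPR179, switch Go off, and leucine-rich repeat proteins hold the channel and the receptor in place. Loss of several of these genes causes congenital stationary night blindness, in which photoreceptors survive but their signal does not reach the inner retina. In bulk retina, fewer cells of a type and less RNA per cell cannot be told apart.

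Of the 10 members, 9 had an entry among the RefSeq promoter windows of GRCm38.p6. The windows of 3 members are shown because these genes stand for the receptor (Grm6) and for the 2 ends of the fold changes reported below (Trpm1 and Lrit3). Each window holds the 250 bases before the annotated start, 5′ to 3′ on the strand of the gene. Capitals mark the letters TAATCC or their reverse complement GGATTA, the core bound by OTX2 and CRX, factors of bipolar cells and photoreceptors. Windows were also searched for TAATTA, a homeodomain core that was found in none of the 3 windows shown.
Grm6, chr11:50850435-50850684, plus strand: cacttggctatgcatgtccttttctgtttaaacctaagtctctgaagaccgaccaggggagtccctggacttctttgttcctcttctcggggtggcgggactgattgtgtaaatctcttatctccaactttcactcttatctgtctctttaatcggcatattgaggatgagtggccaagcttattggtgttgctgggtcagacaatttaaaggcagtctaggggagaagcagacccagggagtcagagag
Trpm1, chr7:64153585-64153834, plus strand: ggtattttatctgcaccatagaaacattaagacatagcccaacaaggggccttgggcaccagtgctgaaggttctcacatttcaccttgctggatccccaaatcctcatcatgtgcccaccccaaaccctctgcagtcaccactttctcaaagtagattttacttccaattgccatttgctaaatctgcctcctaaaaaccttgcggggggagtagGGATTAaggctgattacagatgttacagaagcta
Lrit3, chr3:129804137-129804386, minus strand: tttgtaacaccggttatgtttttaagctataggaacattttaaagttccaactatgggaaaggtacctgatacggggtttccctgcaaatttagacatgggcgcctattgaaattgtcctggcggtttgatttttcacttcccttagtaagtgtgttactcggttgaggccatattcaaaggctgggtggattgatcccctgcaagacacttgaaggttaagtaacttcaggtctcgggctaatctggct
The Grm6 and Trpm1 starts were those of the deposited gene table, and the Lrit3 start lay 106 bases upstream of the deposited gene end. In the window nearest to the deposited start, 1 of the 9 members (Trpm1) held TAATCC on either strand and 0 held TAATTA, where 6.25% and 4.84% of all 32851 windows did. The nearest annotated start lay 5020 bases from the deposited start for Nyx, 872 for Gnao1 and 279 for Gpr179. For these genes the count therefore does not cover the bases just before the deposited start in full. The Trpm1 match began 34 bases before the start. A match describes the letters and not a bound site.

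Library totals were 15039385 to 16989737 counts for sIVs and 14640235 to 15948291 for PBS. Markers of each retinal cell type listed for this work were above 1 CPM (counts per 1000000 of the TMM-adjusted library size) in at least 1 library. The sIVs libraries 3 and 4 stood apart from the rest: their rod markers had medians of -1.98 and -1.96 on the log2 scale relative to the PBS mean, against 0.07 and -0.25 in sIVs libraries 2 and 5. Summed over the list, the 11 rod markers held 8014 to 37958 CPM in sIVs libraries and 33296 to 40401 CPM in PBS libraries. The 8 cone markers held 557 to 1176 CPM in sIVs and 1237 to 1838 CPM in PBS, and the 7 reactive glia markers 943 to 2322 CPM in sIVs and 426 to 900.3 CPM in PBS. The part of these shifts in the values of the cascade genes was not tested.

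Lrit3, the gene of a leucine-rich repeat protein of the photoreceptor to ON bipolar synapse, was lower in all 4 sIVs libraries than in any PBS library. The log2 fold changes of the receptor, channel and G protein genes were smaller than that of Lrit3, and their libraries overlapped between the groups. By edgeR's quasi-likelihood test, adjusted over all genes tested, 0 of the 10 members and 0 of the 17725 genes (0%) passed. Unadjusted, 1 member (Lrit3) had a p under 0.05, as did 2702 of all genes (15.2%). DESeq2 called 1 member, again Lrit3, and 3.02% of all genes (2.52% higher and 0.502% lower in sIVs). Limma-voom called 0 members without sample quality weights; with them it called 3 members (Lrit3, Trpm1 and Rgs11) and 28.1% of all genes. With no filter on low counts, edgeR called 0 members and 0.45% of all genes, 0.0207% as lower in sIVs. Log2 fold changes of sIVs over PBS lay within 0.27 of 0 for the other 9 members, 6 of the 10 were positive and 4 negative, and the median was 0.03, against -0.01 over all genes tested. The member counts, 297 to 9718 per library, carry a counting error of 1.01% to 5.80%, below the spread between libraries.

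**Figure D1:**
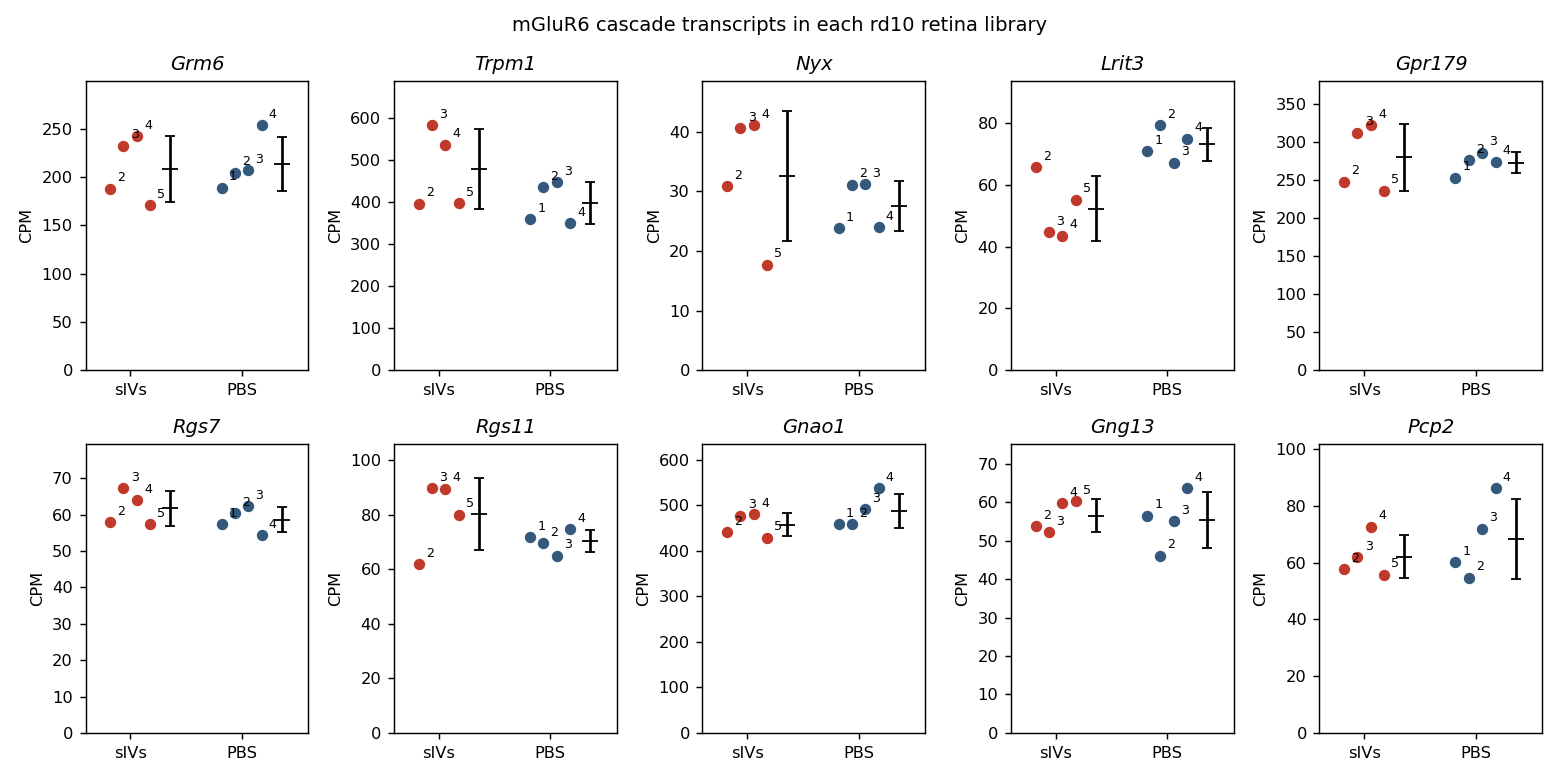
Level of each mGluR6 cascade gene (CPM, linear axis from 0) in each rd10 retina library, sIVs in red and PBS in blue, with library numbers beside the points and the mean ± SD of each group in black. Lrit3 is the 1 gene of the 10 whose sIVs libraries all lie below the PBS libraries.

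Grm6, which encodes the glutamate receptor that starts the cascade (ENSMUSG00000000617, chromosome 11, 50850685 to 50866208, GRCm38), stood at 188, 232, 242 and 171 CPM in sIVs libraries 2 to 5. It stood at 189, 204, 207 and 254 CPM in PBS libraries 1 to 4. The groups overlapped: the highest library was a PBS one, and sIVs libraries 2 and 5 were the lowest. The means were 208 ± 34.2 CPM in sIVs and 213 ± 27.9 CPM in PBS (SD, n = 4 each). The log2 fold change was -0.04 ± 0.13 (SE, edgeR adjusted p = 0.923), with a 95% interval of -0.33 to 0.26, and it turned to 0.049 when libraries were scaled by their totals. Without sIVs libraries 3 and 4 it was -0.25 ± 0.10 (SE, edgeR adjusted p = 0.324). An antisense gene overlaps Grm6, and its own counts were 1.80% of those of Grm6.

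Trpm1 encodes the cation channel that the cascade holds shut (ENSMUSG00000030523, chromosome 7, 64153835 to 64269775). It stood at 396, 583, 537 and 398 CPM in sIVs libraries 2 to 5 and at 359, 436, 447 and 350.5 CPM in PBS libraries 1 to 4. The sIVs libraries 3 and 4 were above every PBS library, while 2 and 5 lay within the PBS range. Its means of 479 ± 95.7 CPM in sIVs and 398 ± 50.7 CPM in PBS (SD, n = 4 each) gave the most positive fold change of the members, 0.27 ± 0.15 on the log2 scale (SE, edgeR adjusted p = 0.429), with an interval of -0.07 to 0.60. With sIVs libraries 3 and 4 left out the log2 fold change was -0.005 (edgeR adjusted p = 0.991).

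The leucine-rich repeat genes of the synapse, Nyx and Lrit3, lay on opposite sides of PBS in sIVs libraries 3 and 4. Nyx encodes nyctalopin, which is needed for TRPM1 to reach the dendritic tip (ENSMUSG00000051228, chromosome X, 13466110 to 13489313). Its level was 30.9, 40.6, 41.1 and 17.7 CPM in sIVs libraries 2 to 5, against 23.9, 31.1, 31.2 and 24.0 CPM in PBS libraries 1 to 4. The sIVs group thus held both the highest values (libraries 3 and 4) and the lowest (library 5). Nyx had the largest coefficient of variation of the members in sIVs, 33.6%, against 15.2% in PBS, where Pcp2 varied more. Its fold change of 0.24 ± 0.24 on the log2 scale (SE, edgeR adjusted p = 0.656) had an interval of -0.29 to 0.77. Leaving out sIVs libraries 3 and 4 gave -0.19 (edgeR adjusted p = 0.726).

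Lrit3 (ENSMUSG00000093865, chromosome 3, 129787881 to 129804030) encodes a leucine-rich repeat protein required for TRPM1 at the ON bipolar dendrite; in the mouse it is known to be made by photoreceptors and to act across the synapse. It stood at 65.8, 44.7, 43.6 and 55.3 CPM in sIVs libraries 2 to 5, against 70.9, 79.4, 67.3 and 75.1 CPM in PBS libraries 1 to 4. All 4 sIVs libraries lay below all 4 PBS libraries, library 2 by the smallest margin; 3.36% of the genes tested were separated in this direction. The means were 52.4 ± 10.4 CPM in sIVs and 73.2 ± 5.24 CPM in PBS (SD, n = 4 each). The edgeR log2 fold change was -0.48 ± 0.13 (SE, adjusted p = 0.178), with an interval of -0.77 to -0.20. By unadjusted p it ranked 387 among the 17725 genes. DESeq2 gave an adjusted p of 0.0447. Without sIVs library 2 the edgeR log2 fold change was -0.61 and passed (adjusted p = 0.0129), where 7.39% of all genes were called (2.56% as lower), and without sIVs libraries 3 and 4 it was -0.28 ± 0.09 (SE, edgeR adjusted p = 0.255).

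The medians of the rod and cone marker lists, like Lrit3, were lowest in sIVs libraries 3 and 4. Relative to the PBS mean, Lrit3 stood at -0.15, -0.71, -0.75 and -0.40 on the log2 scale in sIVs libraries 2 to 5. The median of the 8 cone markers stood at -0.23, -1.20, -1.05 and -0.52 in the same libraries, and that of the 11 rod markers at 0.07, -1.98, -1.96 and -0.25. Among the cone markers, Pde6c (cone phosphodiesterase) and Cnga3 (a cone channel subunit), named after their values were seen, were not lowest there. Pde6c stood at 117, 196, 193 and 85.0 CPM in sIVs libraries 2 to 5 and at 114, 126, 129 and 175 CPM in PBS libraries 1 to 4. The part of these markers in the Lrit3 difference was not tested. Lrit2, a related leucine-rich repeat gene of the retina and the gene of smallest p among the further cascade genes described below, stood at 223, 94.7, 92.5 and 139 CPM in sIVs libraries 2 to 5 and at 207, 198, 211 and 235 CPM in PBS libraries 1 to 4 (log2 fold change -0.63 ± 0.25 SE, edgeR adjusted p = 0.283).

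**Figure D2:**
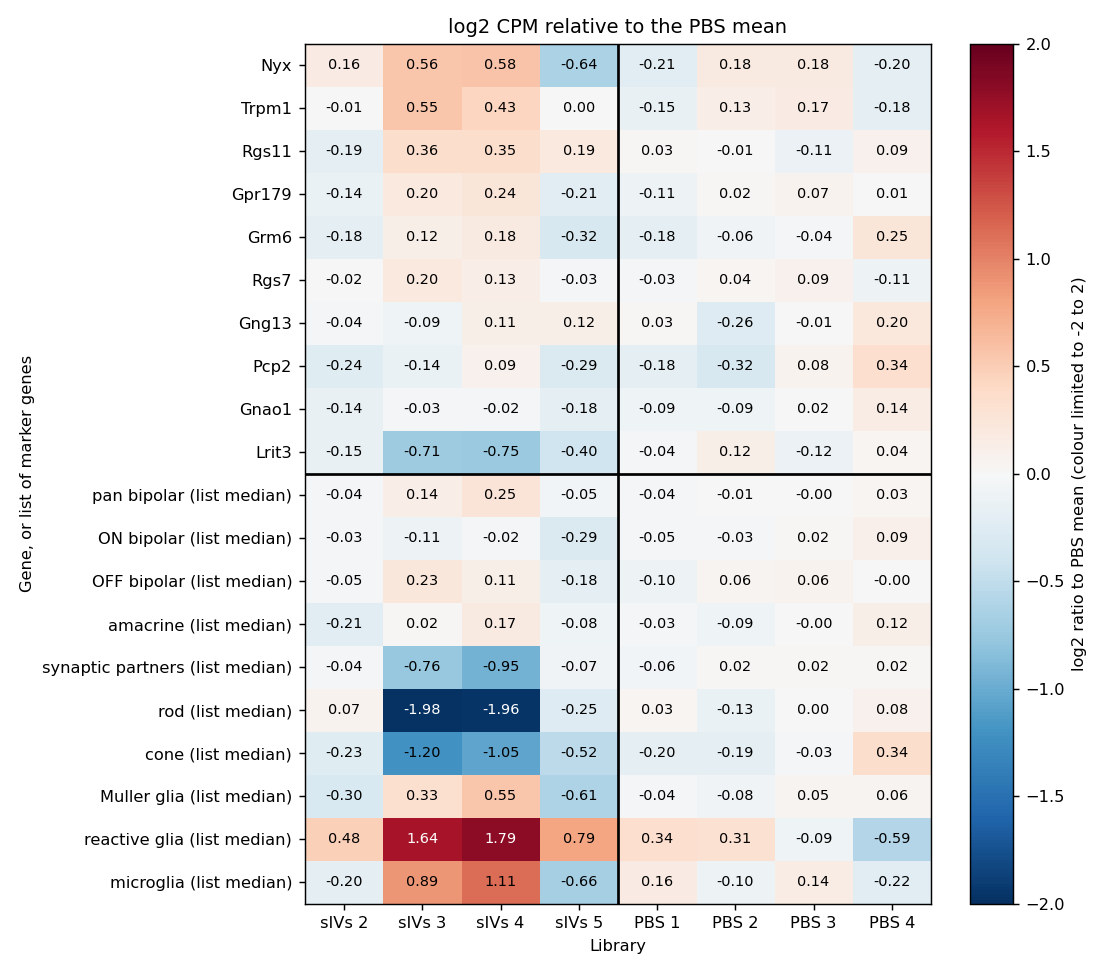
Log2 ratio of each library to the PBS mean for the mGluR6 cascade genes (upper rows) and for the median of marker lists (lower rows), sIVs libraries left of PBS libraries. Lrit3 reads -0.71 and -0.75 in sIVs libraries 3 and 4, where Trpm1 reads 0.55 and 0.43 and the rod list -1.98 and -1.96.

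Gpr179 encodes the orphan receptor that anchors the Go regulators beside mGluR6 (ENSMUSG00000070337, chromosome 11, 97332109 to 97352077). It stood at 248, 313, 322 and 236 CPM in sIVs libraries 2 to 5 and at 253, 276, 286 and 274 CPM in PBS libraries 1 to 4. Both extremes lay in sIVs: libraries 3 and 4 were above every PBS library, and libraries 2 and 5 below. The coefficient of variation was 15.7% in sIVs and 5.05% in PBS. The fold change was 0.04 ± 0.11 on the log2 scale (SE, edgeR adjusted p = 0.899), with an interval of -0.21 to 0.29. It turned to -0.17 ± 0.07 (SE, edgeR adjusted p = 0.319) without sIVs libraries 3 and 4.

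The regulators Rgs7 and Rgs11 encode GTPase-activating proteins that work with the Gβ5 subunit to end Go signalling. Rgs11 (ENSMUSG00000024186, chromosome 17, 26202951 to 26211324) stood at 61.8, 89.9, 89.6 and 80.1 CPM in sIVs libraries 2 to 5, against 71.7, 69.7, 65.0 and 74.7 CPM in PBS libraries 1 to 4. The sIVs libraries 3, 4 and 5 were above every PBS library and library 2 below every one. Its log2 fold change was 0.19 ± 0.12 (SE, edgeR adjusted p = 0.454), and 0.30 with an adjusted p of 0.0487 without sIVs library 2, where 4.83% of all genes were called as higher. With sIVs libraries 3 and 4 left out it was 0.01 (edgeR adjusted p = 0.975). Rgs7 (ENSMUSG00000026527, chromosome 1, 175059087 to 175492500), which neurons outside the bipolar class also use, varied less than Rgs11 in sIVs but not in PBS. The coefficients of variation of Rgs7 and Rgs11 were 7.88% and 16.4% in sIVs and 5.95% and 5.78% in PBS. Rgs7 stood at 58.1, 67.4, 64.1 and 57.3 CPM in sIVs libraries 2 to 5 and at 57.4, 60.4, 62.4 and 54.4 CPM in PBS libraries 1 to 4, so that sIVs libraries 3 and 4 lay just above the PBS range. The log2 fold change was 0.07 ± 0.08 (SE, edgeR adjusted p = 0.682), with an interval of -0.10 to 0.25, and -0.03 without those libraries.

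Gnao1 encodes the α subunit of Go, which is used widely in neurons (ENSMUSG00000031748, chromosome 8, 93809966 to 93969388). It stood at 442, 478, 481 and 429.6 CPM in sIVs libraries 2 to 5 and at 459, 459, 493 and 539 CPM in PBS libraries 1 to 4. The groups overlapped, with sIVs libraries 2 and 5 below every PBS library. It had the smallest coefficient of variation of the members in sIVs, 5.58%, against 7.74% in PBS, and its fold change of -0.09 ± 0.08 on the log2 scale (SE, edgeR adjusted p = 0.634) had an interval of -0.28 to 0.10.

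Gng13 encodes the γ subunit of Go in ON bipolar cells (ENSMUSG00000025739, chromosome 17, 25717171 to 25719406). It stood at 53.8, 52.2, 59.9 and 60.4 CPM in sIVs libraries 2 to 5, all within the PBS range of 46.1 to 63.7 CPM (56.5, 46.1, 55.1 and 63.7 CPM in PBS libraries 1 to 4). The log2 fold change was 0.03 ± 0.10 (SE, edgeR adjusted p = 0.911), with an interval of -0.19 to 0.26. Pcp2 encodes a modulator of Go found in rod bipolar cells and cerebellar Purkinje cells (ENSMUSG00000004630, chromosome 8, 3623371 to 3625545). It stood at 57.7, 62.0, 72.7 and 55.8 CPM in sIVs libraries 2 to 5, again inside the PBS range, with 60.1, 54.7, 72.0 and 86.4 CPM in PBS libraries 1 to 4. Its spread was wider in PBS (coefficients of variation 12.2% in sIVs and 20.6% in PBS), and the log2 fold change was -0.14 ± 0.14 (SE, edgeR adjusted p = 0.681), with an interval of -0.46 to 0.18. A protein-coding gene on the opposite strand overlaps each of Pcp2 (Pet100), Rgs11 (Arhgdig) and Gng13 (Chtf18), at 14.0%, 10.3% and 34.8% of the member's counts. These percentages use the counts of the whole other gene, and the overlaps span 2175, 4836 and 481 bases. The strand setting of the counting is not given in the sources used here, so it is not known whether reads from such a pair were told apart.

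The members did not vary as 1 block. In sIVs libraries 3 and 4 together, 5 of the 10 members (Trpm1, Nyx, Gpr179, Rgs7 and Rgs11) lay above every PBS library, as did 24.8% of all genes tested, and 1 (Lrit3) lay below, as did 25.2%. Medians of other marker lists were also above the PBS mean in libraries 3 and 4, at 0.89 and 1.11 for the 7 microglia markers and 0.33 and 0.55 for the 8 Müller glia markers on the log2 scale. They stood at 0.14 and 0.25 for the shared bipolar markers and 0.23 and 0.11 for the OFF bipolar markers. The medians of the ON bipolar markers (-0.11 and -0.02) and of the ganglion cell markers (-0.20 and -0.05) were below the PBS mean there. Summed microglia markers held 101 to 328 CPM in sIVs and 118 to 175 CPM in PBS, and the part of these lists in the member values was not tested. In sIVs libraries 2 and 5 together, 4 members (Grm6, Gpr179, Gnao1 and Lrit3) lay below every PBS library, against 11.1% of all genes. The SD of log2 CPM was larger in sIVs than in PBS for 7 members, and for 71.9% of all genes. Without sIVs libraries 3 and 4, 8 of the 10 log2 fold changes were negative, with a median of -0.17 against -0.001 over all genes. None of the 10 passed edgeR in that setting (0.0164% of all genes did). Other inner retinal lists were lower there too. Medians were -0.14 for amacrine (7 of 8 negative), -0.23 for ganglion cell (8 of 8) and -0.45 for horizontal cell markers (4 of 4). The reactive glia median was 0.79, with 0 of 7 negative.

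**Figure D3:**
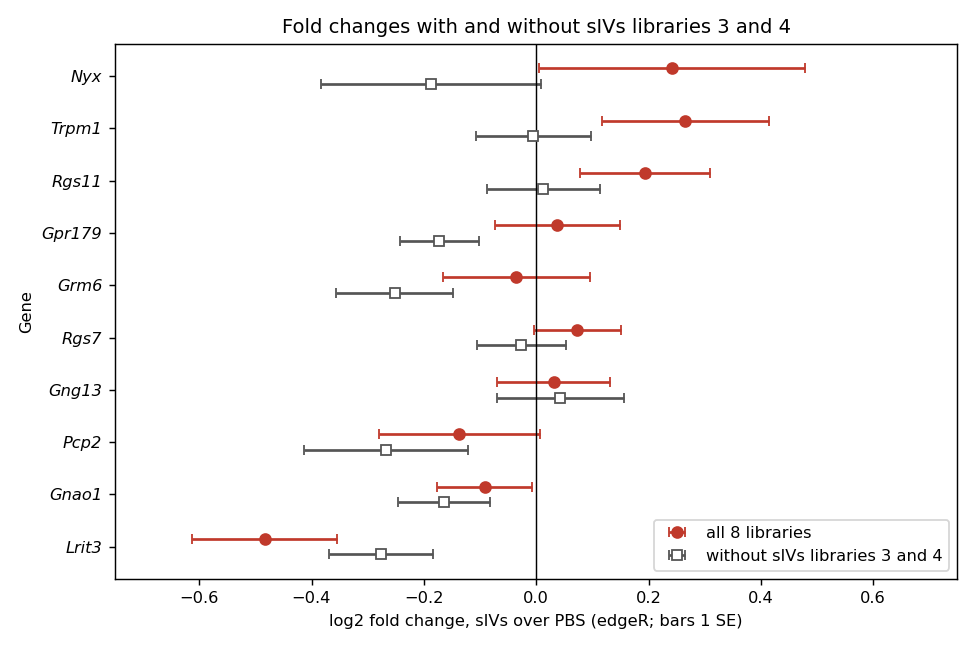
Log2 fold change of sIVs over PBS with 1 SE (edgeR), for all 8 libraries (red circles) and without sIVs libraries 3 and 4 (open squares). Trpm1 stands at 0.27 with all libraries and -0.005 without those 2; Lrit3 stays left of 0 in both.

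Levels can be set between genes as FPKM, the deposited value per gene length. The length is a fixed deposited value for each gene (773 bases for Gng13 and 14746 for Trpm1), so the order given here rests on these lengths. In both groups Gng13 had the highest mean FPKM of the members (73.0 ± 5.37 in sIVs and 71.4 ± 9.17 in PBS; SD, n = 4 each) and its libraries did not overlap those of the next gene. Gnao1 followed at 41.3 ± 2.25 FPKM in sIVs and 43.9 ± 3.27 FPKM in PBS, then Grm6 at 38.3 ± 6.24 FPKM in sIVs and 39.2 ± 4.99 FPKM in PBS. Pcp2 came next at 33.9 ± 4.10 FPKM in sIVs and 37.2 ± 7.54 FPKM in PBS, and the ranges of these neighbours overlapped. Trpm1 (32.4 ± 6.41 FPKM in sIVs and 26.9 ± 3.48 FPKM in PBS) and Gpr179 (29.2 ± 4.54 FPKM in sIVs and 28.5 ± 1.43 FPKM in PBS) overlapped too and stood in the opposite order in PBS. Lrit3 averaged 19.1 ± 3.84 FPKM in sIVs and 26.6 ± 1.87 FPKM in PBS. Its range overlapped that of Rgs11 and not that of Gpr179 in sIVs, but that of Trpm1 and not that of Rgs11 in PBS. Rgs11 averaged 19.0 ± 3.08 FPKM in sIVs and 16.6 ± 0.919 FPKM in PBS, and Rgs7 10.2 ± 0.787 FPKM in sIVs and 9.71 ± 0.603 FPKM in PBS. Nyx was the lowest member, at 6.27 ± 2.10 FPKM in sIVs and 5.30 ± 0.813 FPKM in PBS, with no library overlapping those of Rgs7 within either group.

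**Figure D4:**
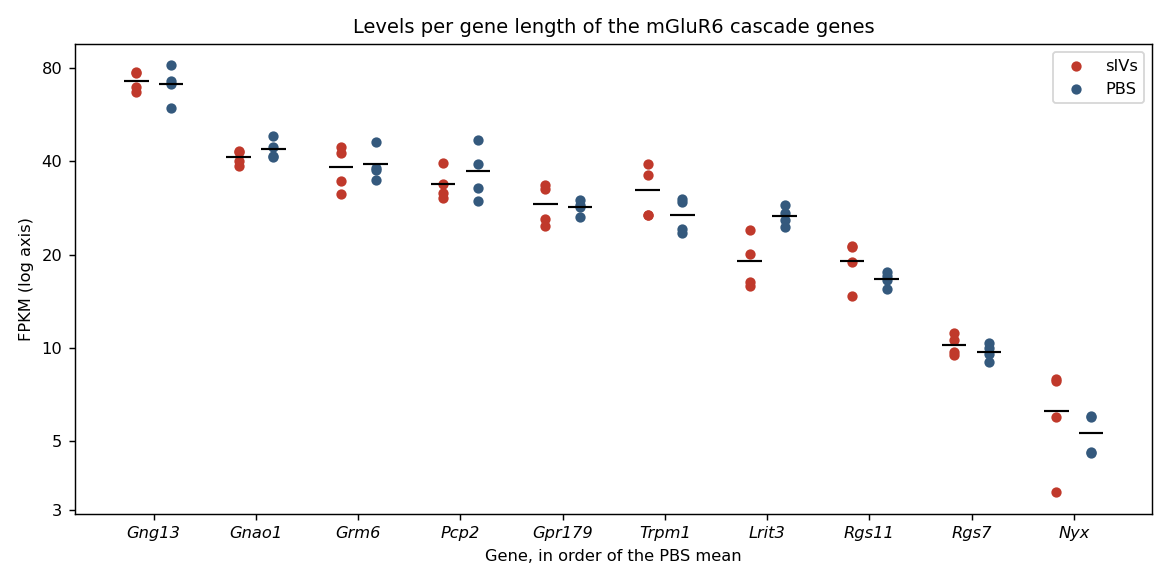
Deposited FPKM (log axis) of each library for the mGluR6 cascade genes in the order of their PBS means, sIVs in red left of PBS in blue, with group means as lines. Gng13 lies above all other members and Nyx below them in each group; Lrit3 averages 19.1 FPKM in sIVs, beside Rgs11, and 26.6 FPKM in PBS, beside Trpm1.

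Bipolar cell markers gave the setting for these levels. Of 8 markers shared by bipolar cells, 11 of ON bipolar and 10 of OFF bipolar cells, 0 passed edgeR in either direction; 1, 3 and 2 had an unadjusted p under 0.05, as did 15.2% of all genes. DESeq2 called 0, 1 (Strip2) and 0 of them, beside 3.02% of all genes. Limma-voom called 0 of each, and with quality weights 5, 2 and 3, beside 28.1% of all genes. The median log2 fold changes were 0.08, -0.11 and -0.02, and -0.08, -0.18 and -0.14 without sIVs libraries 3 and 4. With 1 library left out, the median of the shared markers ran from 0.03 (without sIVs library 4) to 0.12, that of the ON markers from -0.15 to -0.05 (without sIVs library 5) and that of the OFF markers from -0.07 to 0.05. Prkca, the kinase that marks rod bipolar cells, was the most abundant ON marker by counts and stood at 331, 314, 308 and 259.9 CPM in sIVs libraries 2 to 5 and at 324, 349.9, 359 and 382 CPM in PBS libraries 1 to 4 (log2 fold change -0.22 ± 0.09 SE, edgeR adjusted p = 0.30). Strip2, the ON marker of smallest p, stood at 116, 109, 101 and 94.0 CPM in sIVs and at 125, 141, 141 and 125 CPM in PBS, with all sIVs libraries below PBS, as for 3.36% of all genes (-0.34 ± 0.08 SE, edgeR adjusted p = 0.170). Among OFF markers, Syt2, a synaptotagmin gene, had the smallest p, at 53.6, 84.9, 86.2 and 58.7 CPM in sIVs and 46.9, 52.0, 49.4 and 49.1 CPM in PBS (0.52 ± 0.15 SE, edgeR adjusted p = 0.193).

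Set against the mean log2 CPM of the 8 shared bipolar markers, Lrit3 stood at -0.13, -0.83, -0.94 and -0.31 in sIVs libraries 2 to 5 relative to the PBS mean, with a PBS range of -0.14 to 0.14. Library 2 thus lay inside the PBS range on this scale. Gnao1 was below the PBS range in all 4 sIVs libraries (-0.12, -0.15, -0.22 and -0.09, against -0.07 to 0.12 in PBS), but its sIVs mean was 0.03 when set against the ON bipolar markers. In the same libraries Grm6 stood at -0.15, 0.01, -0.01 and -0.22 and Trpm1 at 0.02, 0.43, 0.24 and 0.10. The means of 6 members were below 0 on this scale, and of 2 members (Lrit3 at -0.38 and Pcp2 at -0.001) when the ON bipolar markers were used instead.

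Other genes were counted from 2 lists, 10 genes named here as further cascade genes and 13 genes of the synapse that ON bipolar dendrites contact. The first list is not limited to genes of ON bipolar cells, so its median is not a level of the mGluR6 cascade. By edgeR 0 of the 23 passed, and 3 and 2 had an unadjusted p under 0.05 (15.2% of all genes). DESeq2 and limma-voom called 0 of them, and limma-voom with quality weights 7 and 9 (28.1% of all genes). Without sIVs library 2, edgeR called 1 (Lrit2) and 2 (Cacna1f and Rims2), beside 7.39% of all genes; Rims2, a gene of the presynaptic active zone, is named after its values were seen. The list median log2 fold changes were -0.26 and -0.24, with 8 of 10 and 11 of 13 negative. Gnb3, the β subunit of Go in these cells and also of cone transducin, stood at 725, 835, 828 and 897 CPM in sIVs libraries 2 to 5 and at 803, 800.1, 671 and 692 CPM in PBS libraries 1 to 4 (0.15 ± 0.10 SE, edgeR adjusted p = 0.517). Cacna1f, the presynaptic calcium channel of photoreceptor terminals and the synaptic gene of smallest p, stood at 360.3, 227, 198 and 309 CPM in sIVs and 351, 371, 400.1 and 409.5 CPM in PBS (-0.49 ± 0.17 SE, edgeR adjusted p = 0.249). The medians of the further cascade list and of the synaptic list, like that of the rod list, were lowest in sIVs libraries 3 and 4. Relative to the PBS mean, the further cascade median stood at 0.02, -0.77, -0.76 and -0.13 in sIVs libraries 2 to 5. Its genes did not move together, as with Rgs9bp and Kctd12, named after their values were seen. In sIVs libraries 3 and 4 Rgs9bp stood at 248 and 217 CPM, against 790 to 884 CPM in PBS. Kctd12 stood at 18.8 and 22.7 CPM there, against 12.2 to 13.7 CPM in PBS. The synaptic median stood at -0.04, -0.76, -0.95 and -0.07 in the same libraries. The part of these lists in any member's value was not tested. The list medians without sIVs libraries 3 and 4 were -0.18 and -0.04.

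Likeness of pattern was measured as the mean absolute difference of log2 CPM over the 8 libraries, each gene centred on its own mean, among 14039 protein-coding genes of at least 1 CPM. The genes most like Grm6 were Cacng4, Aff3, Mapk10, Rarb and Scrn1, at 0.034 to 0.045, and those most like Trpm1 were Pald1, Sec24d, Abcg2, Frmd3 and Cpd, at 0.032 to 0.059. Among the members, Gpr179 was nearest to both, at 0.070 from Grm6 (place 97) and 0.115 from Trpm1 (place 285). Lrit3 was the farthest member from both, at 0.328 and 0.432. The genes were measured in the same 8 libraries and share their depth and cell make-up.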

How the data were processed

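Retinas of rd10 mice were sequenced in 4 sIVs and 4 PBS libraries, grouped by title. The labels' protocols describe TRIzol extraction, poly(A) selection and paired reads of dUTP (strand-marked) libraries. The submitters' processing notes name mm10; no aligner, counter, annotation or strand setting is given in the sources used here. The counts were deposited by the authors as whole numbers, not normalised. The deposited FPKM values equal counts per length and library total times 1 constant per library, 0.930 to 1.03. All 10 members matched GENCODE M21 (GRCm38) in start and end. Promoter windows are from RefSeq (GRCm38.p6).

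The main test was edgeR 4.0.16 (R 4.3.3) on the counts: filterByExpr, TMM scaling, glmQLFit and glmQLFTest with group as the only term, and Benjamini-Hochberg adjustment over 17725 genes at 0.05. Standard errors come from the F statistic, and intervals are 95%. Alternatives were DESeq2 1.42.0, limma 3.58.1 (voom, or log2(FPKM + 0.1) and log2(FPKM + 1)), other scalings and filters, libraries left out, and replicate blocks. The tests were checked on simulated counts. The biological coefficient of variation was 22.3% in sIVs and 8.83% in PBS. Every pair of libraries differed by more than sampling noise, so none counted as a repeat. The lowest chi-square per gene, 3.65, was that of sIVs library 2 and PBS library 1, against 3.84 for the closest PBS pair. Differences above sampling noise do not show that libraries came from separate animals. Counting errors do not cover other sources. Named genes were the members, the gene of smallest p and of highest mean count in a list where a result turns on it, and the 5 genes most like Grm6 and most like Trpm1; 1 gene that the rule selects is not reported here. The members and lists were chosen with earlier results of these data known.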

Additional observations from a re-analysis of the deposited data

How the results depend on the processing

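Over 21 alternatives, Lrit3 stayed negative (-0.64 to -0.28 on the log2 scale, adjusted p 0.00170 to 0.429), as did Gnao1 (-0.16 to -0.01) and Pcp2 (-0.27 to -0.01), and Rgs11 stayed positive (0.01 to 0.33). The counts called among all genes, members and the genes of the other lists were 536, 1 and 6 with DESeq2, and 4973, 3 and 59 with sample quality weights. With no filter on low counts, 152 of all genes and 4 listed genes were called, and without sIVs libraries 3 and 4, 3 of all genes. Leaving out 1 library gave 0 to 1331 of all genes, 0 to 2 members and 0 to 17 listed genes, with the highest counts without sIVs library 2. Grm6 turned to 0.14 with quality weights and 0.049 with library totals. Without sIVs libraries 3 and 4, Trpm1 turned to -0.0049, Nyx to -0.19, Gpr179 to -0.17 and Rgs7 to -0.026. Leaving out 1 library gave -0.12 to 0.056 for Grm6, -0.038 to 0.11 for Gpr179 and -0.048 to 0.10 for Gng13. Members below 0 relative to bipolar markers numbered 6 with shared markers and 2 with ON markers. The cause was not tested. Of 273 values of list medians under alternatives, 72 moved by more than the PBS spread. With a replicate block by title or biosample number, 0 genes were called. Same-numbered libraries had correlations of deviations from -0.07 to 0.10. By title number 1 of 3 sIVs libraries, and by biosample number 2 of 4, correlated best with their own number. So few pairs cannot decide whether the numbers pair the libraries.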
